A study of Mus musculus with 6 samples.

Results

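The *Rab3* family, its relative *Rab27b* and 2 regulators of Rab3 or partner GTPases were measured in the retinal pigmented epithelium (RPE) of mouse embryos on embryonic day 15.5. The 7 genes are *Rab3a*, *Rab3b*, *Rab3c*, *Rab3d*, *Rab27b*, *Rab3gap1* and *Rab3ip*, out of 19938 genes measured by a probe set that carries their symbol alone. They were chosen by family and role, but with the difference of *Rab3b* between the groups of arrays already known, so the differences of these 7 genes are given as a description and no test is read from them. Where a gene had several probe sets the one with the highest mean signal would have been used, but each of the 7 genes had exactly 1. Mouse Gene 1.0 ST arrays of Affymetrix, with probes spread along each gene, were hybridised with RNA of 3 samples labelled mutant (Pax6loxP/loxP;DctCre) and 3 samples labelled control (Pax6loxP/loxP), all C57BL/6J. The floxed *Pax6* alleles were thus shared by all 6 samples. *DctCre* drives recombination from the *Dct* promoter, which is active in the dorsal optic vesicle and then in RPE progenitors, and by the paper's account the recombined allele still yields a fragment of PAX6 without the paired domain. Controls were littermates, and each sample was a pool of RPE from several embryos, sorted into tubes by how dark the tissue was. Tail cuts of the embryos were taken to verify their genotype.

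The control and mutant labels of the arrays run against the second deposited table. Of its 100 entries, 90 could be matched to a probe set. For 0 of the 90 both group means lay within 0.1 of the arrays as labelled, and for 90 they did with the names exchanged. *Rab3b* is 1 of them, with deposited means of 4.98 under KO and 5.90 under CON, where the arrays labelled mutant average 5.90 and those labelled control 4.97. The sample labels were kept, so each value below is called by its label, and all signed values are arrays labelled mutant minus arrays labelled control. This direction is the opposite of the study's, which reports *Rab27a* and *Wnt2b*, both described below, as lower in its mutant. The study's direction does not rest on arrays alone. Its mutant RPE was also paler, and PCR found fewer transcripts of *Mlana*, *Si*, *Tyr* and *Tyrp1* in it. Of the probe sets that passed limma, as described below, 66 were higher and 19 lower on the arrays labelled mutant. The paper instead has most of its altered transcripts reduced. Exchanged array names would give the paper's direction for *Rab27a*, *Wnt2b* and this balance. With the names exchanged every difference keeps its size and changes its sign. *Pax6* itself does not settle the names, with 9.00, 8.97 and 8.74 on the arrays labelled mutant and 9.15, 9.02 and 9.22 on those labelled control, and whether its probes cover the deleted exons is not known here. The unit throughout is the log2 signal of a probe set, as deposited by the authors. The median of an array lay between 4.86 and 4.93, and pairs of arrays correlated at 0.992 to 0.995 over all probe sets. Among markers of the RPE, *Dct* and *Otx2* were bright on all arrays, while *Rpe65*, *Lrat*, *Best1* and *Rgr* had means below the median signal, *Rpe65* at 2.25 to 2.39. Markers of mesenchyme such as *Col1a1* and *Col1a2* were bright too. In such bulk samples fewer cells of a type and less RNA per cell cannot be told apart.

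Rab proteins are small GTPases that sit on a membrane when bound to GTP and recruit effectors there. RAB3 proteins mark secretory vesicles and synaptic vesicles and act late in regulated exocytosis, at docking and priming before fusion with the plasma membrane. RAB27 proteins act on secretory granules and lysosome-related organelles and share several effectors with RAB3. In pigment cells RAB27A couples melanosomes to the cytoskeleton, and the RPE both holds melanosomes and secretes growth factors from its apical and basal faces.

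The sequences before the start sites of the 4 *Rab3* paralogues are shown because the array data set *Rab3b* apart from the others. Each window runs from 250 bases before to 50 bases after a RefSeq start (GRCm38.p6), written 5′ to 3′ on the strand of the gene. RefSeq windows were found for 6 of the 7 genes, with 2 for *Rab3a*, of which the one at the first start is printed. Capitals mark GGGCGG (the GC box, bound by SP factors) on either strand, so that CCGCCC in capitals is the same motif on the other strand.
Rab3b (chr4:108878820-108879119, plus strand): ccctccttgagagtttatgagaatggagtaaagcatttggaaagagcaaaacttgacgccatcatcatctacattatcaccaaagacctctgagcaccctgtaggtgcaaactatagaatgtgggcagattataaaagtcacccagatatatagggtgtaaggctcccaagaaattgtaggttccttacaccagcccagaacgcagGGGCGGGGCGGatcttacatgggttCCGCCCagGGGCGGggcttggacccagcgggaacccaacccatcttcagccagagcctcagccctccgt
Rab3a (chr8:70754453-70754752, plus strand): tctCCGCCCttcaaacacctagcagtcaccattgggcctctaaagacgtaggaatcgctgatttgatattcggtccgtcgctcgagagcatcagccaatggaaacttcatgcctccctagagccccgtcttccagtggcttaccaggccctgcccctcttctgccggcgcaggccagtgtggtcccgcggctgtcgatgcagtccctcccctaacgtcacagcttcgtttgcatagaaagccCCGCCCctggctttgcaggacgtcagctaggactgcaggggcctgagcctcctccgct
Rab3c (chr13:110280157-110280456, minus strand): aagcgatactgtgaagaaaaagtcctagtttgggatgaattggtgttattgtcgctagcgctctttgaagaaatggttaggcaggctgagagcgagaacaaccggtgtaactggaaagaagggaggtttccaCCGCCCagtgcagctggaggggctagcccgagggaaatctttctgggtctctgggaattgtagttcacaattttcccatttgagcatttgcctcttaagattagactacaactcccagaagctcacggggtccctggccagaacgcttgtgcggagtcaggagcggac
Rab3d (chr9:21918134-21918433, minus strand): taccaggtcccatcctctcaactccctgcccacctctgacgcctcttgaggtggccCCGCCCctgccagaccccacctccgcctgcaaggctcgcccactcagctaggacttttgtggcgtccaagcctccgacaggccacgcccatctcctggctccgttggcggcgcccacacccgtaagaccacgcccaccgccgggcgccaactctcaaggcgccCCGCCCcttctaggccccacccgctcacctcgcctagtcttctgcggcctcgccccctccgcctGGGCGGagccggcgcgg

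The *Rab3b* window held 4 matches to GGGCGG, of which the first pair shares 1 base, all within 44 bases before the start. The printed windows of *Rab3d*, *Rab3a* and *Rab3c* held 3, 2 and 1. Those of *Rab3ip* and *Rab3gap1*, not printed, held 5 and 1, and the window at the first start of *Rab27a* held 1. The count of matches thus did not follow the differences on the arrays, which are given below. At least 1 match was found in 35.7% of 32851 windows of this length and at least 4 in 5.49%. The E-box forms CATGTG and CACGTG, which MITF and other helix-loop-helix factors bind, were in 14.2% and 7.15% of all windows, and TTCACGC, part of the consensus of the PAX6 paired domain, was in 1.26%. All 3 were searched on both strands, CACGTG being its own reverse complement, and none was in the window of *Rab3b* or in the windows of *Rab3a*, *Rab3c* and *Rab3d*. This says only that these letters are not in these windows.

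*Rab3b* stood apart from its family in these arrays. *Rab3b* encodes a RAB3 protein found in epithelial and endocrine cells as well as in neurons. Its log2 signal was 5.86, 5.94 and 5.89 on the 3 arrays labelled mutant, against 5.03, 4.91 and 4.97 on the 3 arrays labelled control. The groups did not overlap, and the lowest array labelled mutant lay far above the highest array labelled control. The means were 5.90 ± 0.04 in arrays labelled mutant and 4.97 ± 0.06 in arrays labelled control (SD, n = 3 each). The log2 difference came to 0.93, with a standard error of 0.06 and a 95% interval from 0.79 to 1.06, or 1.90-fold. In the arrays labelled control the signal was close to the median of the whole array. Of the 7 genes, *Rab3b* was the 1 with an adjusted p under 0.05 in limma, where 0.363% of 23410 probe sets passed in either direction and 0.282% passed as higher. By the methods' t-test 0 of the 7 passed after adjustment, as did 0 of all probe sets. Since the difference was known when the genes were chosen, nothing is read from this count.

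**Figure D1:**
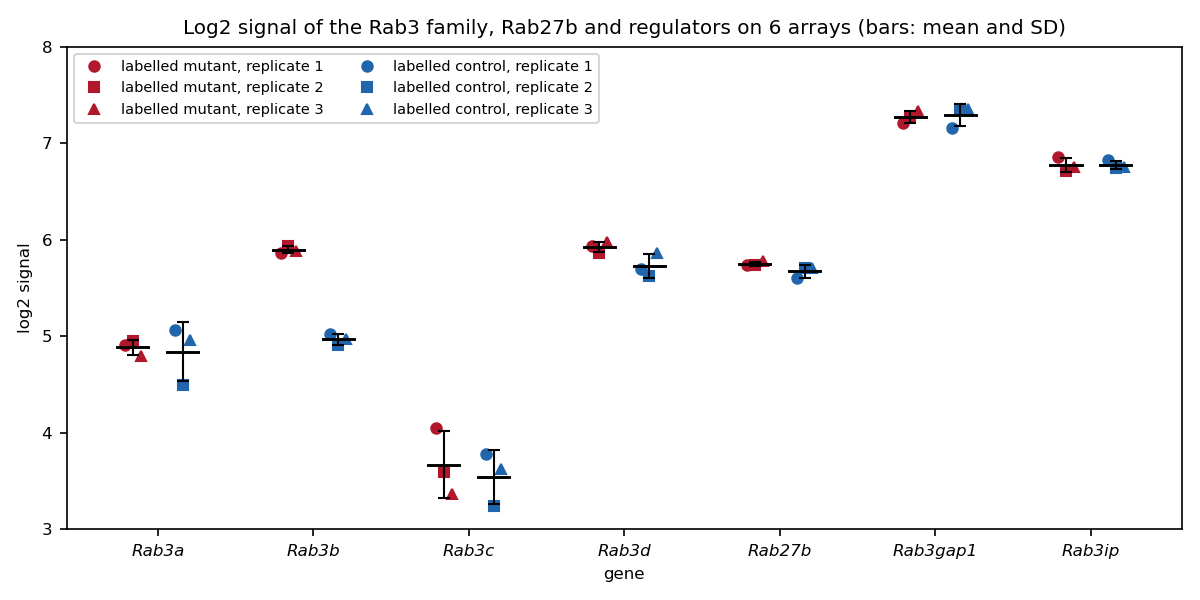
Log2 signal (vertical axis) of the 7 genes (horizontal axis) on each of the 6 arrays, with arrays labelled mutant in red on the left of each pair and arrays labelled control in blue on the right. Horizontal bars give the mean and error bars the SD (n = 3 each). For *Rab3b* the red points lie at 5.86 to 5.94 and the blue points at 4.91 to 5.03, while for *Rab3a*, *Rab3c*, *Rab3d*, *Rab3gap1* and *Rab3ip* the colours overlap.

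*Rab3d*, whose protein sits on secretory granules of exocrine and mast cells, was the paralogue with the next widest difference. It had 5.94, 5.86 and 5.97 on the arrays labelled mutant and 5.69, 5.63 and 5.87 on the arrays labelled control. Control replicate 3 lay slightly above mutant replicate 2, so the groups overlapped at that point alone. The log2 difference was 0.20 (standard error 0.08, 95% confidence interval from 0.02 to 0.37).

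*Rab3a*, the main RAB3 of synaptic vesicles, had 4.91, 4.95 and 4.80 on the arrays labelled mutant and 5.07, 4.49 and 4.96 on the arrays labelled control. Control replicate 2 was the lowest array and control replicate 1 the highest, with all arrays labelled mutant between them. The log2 difference was 0.05 (standard error 0.14, 95% confidence interval from -0.28 to 0.37), and without control replicate 2 it was -0.13. *Rab3c*, another RAB3 of neurons, was the dimmest of the 7, below the array median on each array. It had 4.05, 3.59 and 3.36 on the arrays labelled mutant and 3.78, 3.23 and 3.62 on the arrays labelled control, so the groups overlapped over most of their range. Its log2 difference was 0.12 (standard error 0.19, 95% confidence interval from -0.32 to 0.56), and it turned to -0.07 without mutant replicate 1 and to -0.03 without control replicate 2. Differences within these intervals were not detectable for *Rab3a* and *Rab3c* with this number of arrays. Both intervals end below the 0.93 of *Rab3b*, but that value has its own error and was known beforehand, so this is description only.

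Within an array, the log2 ratio of *Rab3b* to each paralogue was higher on every array labelled mutant than on any array labelled control. Ratios between probe sets carry no level of their own, so each is given relative to its mean over the arrays labelled control. For *Rab3b* over *Rab3d* these were 0.68, 0.83 and 0.68 on the arrays labelled mutant and 0.09, 0.04 and -0.14 on the arrays labelled control. For *Rab3b* over *Rab3a* they were 0.83, 0.86 and 0.96 on the arrays labelled mutant and -0.17, 0.29 and -0.12 on the arrays labelled control. For *Rab3b* over *Rab3c* they were 0.39, 0.92 and 1.10 on the arrays labelled mutant and -0.18, 0.25 and -0.08 on the arrays labelled control. The last pair came closest to overlapping, through mutant replicate 1 and control replicate 2. The difference of *Rab3b* exceeded that of *Rab3d* by 0.73 (standard error 0.09), that of *Rab3a* by 0.88 (standard error 0.15) and that of *Rab3c* by 0.80 (standard error 0.25) on the log2 scale. Against the mean of all 3 the excess was 0.81 (standard error 0.13, 95% confidence interval from 0.44 to 1.17).

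**Figure D2:**
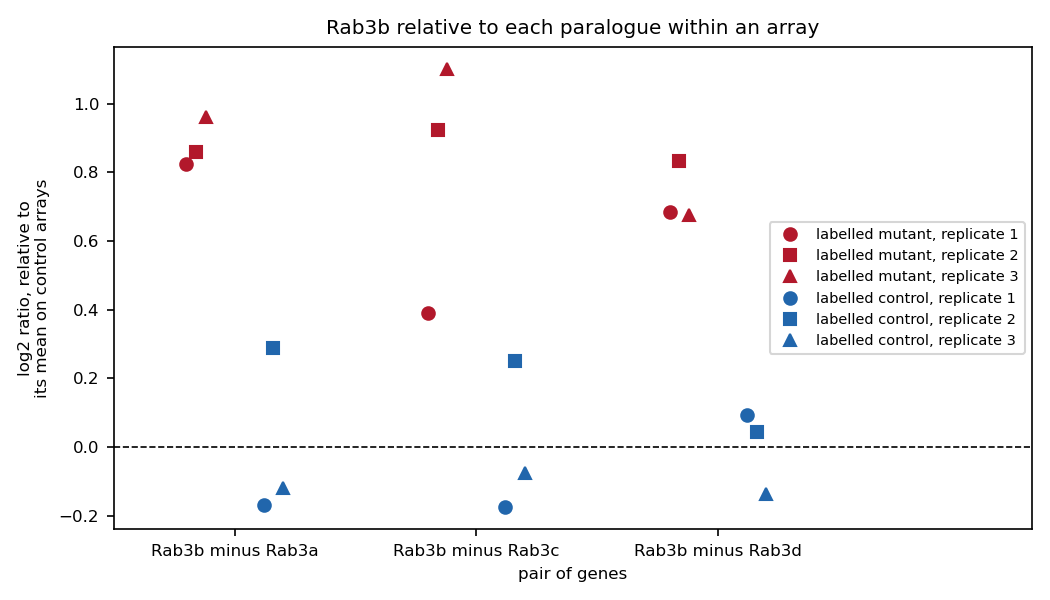
Log2 ratio of *Rab3b* to each paralogue on each array (vertical axis, set to 0 at the mean of the arrays labelled control, dashed line) for the 3 pairs of genes (horizontal axis). Red points are arrays labelled mutant and blue points arrays labelled control. All red points lie above all blue points in each pair, with the smallest gap for *Rab3c*, where they come to 0.39 in red and 0.25 in blue.

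*Rab27b* encodes a GTPase of secretory granules that acts beside its paralogue RAB27A. Its log2 signal was 5.74, 5.74 and 5.78 on the arrays labelled mutant and 5.60, 5.71 and 5.71 on the arrays labelled control. The groups did not overlap, but the gap between them was narrow and control replicate 1 alone lay clearly lower. The log2 difference was 0.08 (standard error 0.06, 95% confidence interval from -0.05 to 0.21), and 0.04 without control replicate 1. *Rab3b* and *Rab27b* were thus the 2 of 7 genes whose groups did not overlap, which was the case for 11% of all probe sets tested. Its paralogue *Rab27a*, which lies outside the 7 genes, had 8.31, 8.57 and 8.61 on the arrays labelled mutant and 7.39, 7.80 and 7.73 on the arrays labelled control. For *Rab27a* limma gave a log2 difference of 0.86 with a standard error of 0.12 and an adjusted p = 0.035. This call was lost with the unnamed probe sets included (adjusted p = 0.16), by the methods' t-test (adjusted p = 0.58) and without any 1 array other than control replicate 1 (adjusted p from 0.055 to 0.19).

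Both regulators among the 7 genes differed little. *Rab3gap1* encodes the catalytic subunit of the complex that makes RAB3 proteins hydrolyse GTP, and in humans its loss causes a syndrome with eye and brain defects. It had 7.21, 7.27 and 7.33 on the arrays labelled mutant and 7.16, 7.36 and 7.36 on the arrays labelled control, which put the log2 difference at -0.02 with a standard error of 0.07 (95% interval, -0.19 to 0.15). *Rab3ip*, whose protein is an exchange factor for RAB8, had 6.86, 6.71 and 6.76 on the arrays labelled mutant and 6.83, 6.75 and 6.75 on the arrays labelled control. Its groups covered nearly the same range, with a 95% confidence interval of the log2 difference from -0.14 to 0.14. Over the 7 genes 5 differences lay above 0 and 2 below, where 9893 of all 19938 genes lay above 0. The median was 0.08, against -7.0e-04 over all genes.

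**Figure D3:**
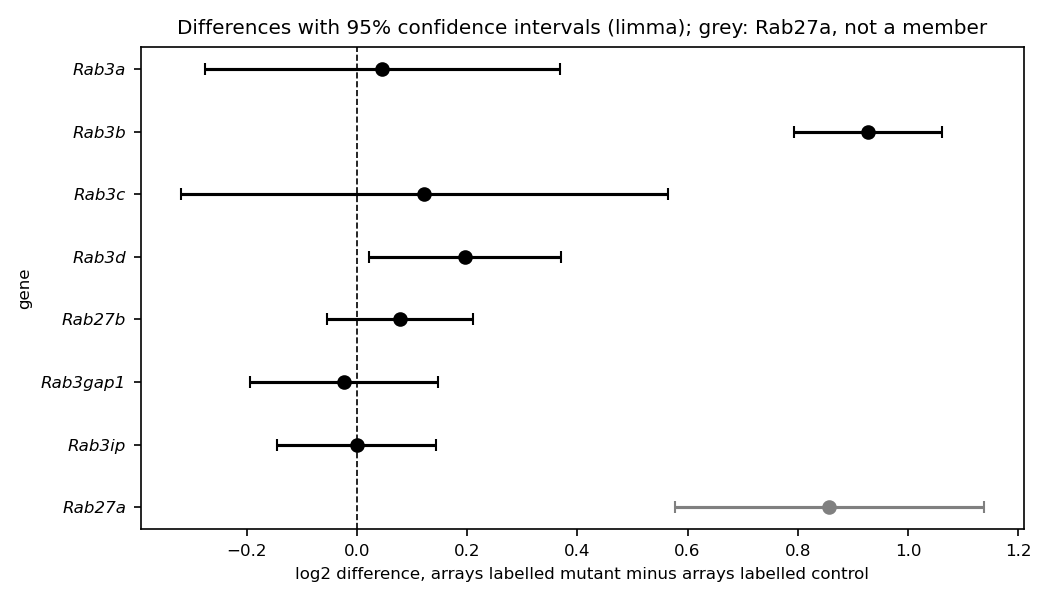
Log2 difference, arrays labelled mutant minus arrays labelled control (horizontal axis), with its 95% confidence interval from limma for each gene (vertical axis), n = 3 arrays each. The 7 genes are in black and *Rab27a* is in grey. The intervals of *Rab3b* (0.79 to 1.06), *Rab27a* (0.58 to 1.14) and *Rab3d* (0.02 to 0.37) lie above 0 (dashed line), and the other 5 include it. The 7 genes are shown as a description, and no test is read from where their intervals lie. The limma call of *Rab27a* was lost under several alternatives.

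*Rab3c* varied from array to array with the signal of neuron markers, and *Rab3a* did so among the arrays labelled control. Both covered a wider range within each group than *Rab3b*. The summed linear signal of 9 neuron markers, among them *Tubb3*, *Stmn2* and *Elavl3*, was 1668, 1274 and 822 on the arrays labelled mutant and 1952, 810.2 and 1319.6 on the arrays labelled control. Both groups thus held a neuron-rich array (replicate 1 of each) and a neuron-poor one (mutant replicate 3 and control replicate 2). The sum of 4 markers of retinal progenitors (*Sox2*, *Rax*, *Hes5* and *Sfrp2*) had the same order within each group. It was 1778, 1706 and 1517 on the arrays labelled mutant and 1783, 1374 and 1589 on the arrays labelled control. Most of it came from *Sfrp2*, by far the brightest. *Sfrp2* had 10.48, 10.49 and 10.42 on the arrays labelled mutant and 10.36, 10.24 and 10.34 on the arrays labelled control, without overlap. Its log2 difference was 0.15, against -0.48 for both *Sox2* and *Rax* and 0.05 for *Hes5*. Of the 4, 0 passed limma, with 1 at an unadjusted p under 0.05 (also 1 by the methods' t-test). *Rab3c* had the order of the neuron markers within each group. *Rab3a* had it among the arrays labelled control, while among those labelled mutant its lowest array was also the neuron-poor one. *Rab3b* had that order too among the arrays labelled control and not among those labelled mutant. It spanned 0.07 among the arrays labelled mutant and 0.12 among those labelled control on the log2 scale, whereas the highest marker sum was 2.03 times the lowest among the arrays labelled mutant and 2.41 times among those labelled control. Of the 9 markers, 0 passed limma between the groups (0 at an unadjusted p under 0.05, also 0 by the methods' t-test), and the part of neurons and retinal progenitors in the values of the *Rab3* genes was not tested.

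**Figure D4:**
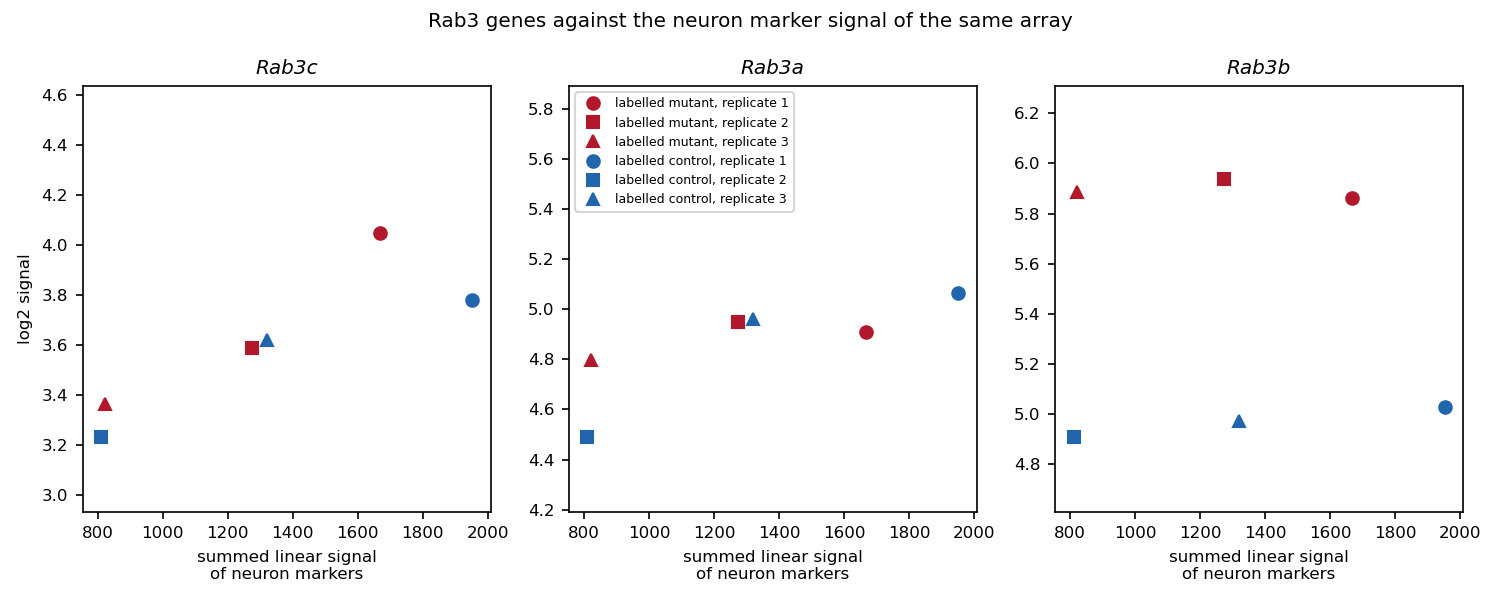
Log2 signal (vertical axes, each spanning the same number of log2 units) of *Rab3c*, *Rab3a* and *Rab3b* against the summed linear signal of 9 neuron markers on the same array (horizontal axis). Red points are arrays labelled mutant and blue points arrays labelled control. *Rab3c* runs from 3.23 at a sum of 810.2 to 4.05 at 1668 and 3.78 at 1952, while *Rab3b* stays within 5.86 to 5.94 in red and 4.91 to 5.03 in blue over the whole range.

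Partners of RAB3 and RAB27 were taken from 5 lists chosen by role, holding 76 measured genes. By limma, 1 of the 76 was higher with an adjusted p under 0.05 and 0 were lower, which is 1.32%, against 0.363% of all probe sets. At an unadjusted p under 0.05 there were 8 (10.5%), against 6.07% of all probe sets. By the methods' t-test there were 6 at an unadjusted p under 0.05, against 1319 of all 23410 probe sets, and 0 after adjustment. The median difference over the 76 genes was 0.0025. The 1 that passed was *Rab27a*, in the list of other secretory Rabs, whose difference was known when the lists were drawn up. The other 10 Rabs of that list did not pass, with 2 of its 11 genes at an unadjusted p under 0.05 (1 by the methods' t-test) and a median of 0.02. *Rab25*, a Rab of recycling endosomes in epithelia that was singled out after its values were seen, had the next highest difference. It had 6.24, 6.08 and 6.26 on the arrays labelled mutant and 6.02, 5.55 and 5.95 on the arrays labelled control, so that its groups did not overlap, and it differed by 0.35 (standard error 0.12, adjusted p = 0.67 by limma).

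Among 11 regulators of the GTPase cycle and of prenylation 0 passed limma, with 1 at an unadjusted p under 0.05 (also 1 by the methods' t-test) and a median of 0.05. *Rabggta*, a subunit of the enzyme that attaches the lipid anchor of Rab proteins, had the smallest p. It had 6.71, 6.58 and 6.81 on the arrays labelled mutant and 6.37, 6.35 and 6.50 on the arrays labelled control, 0.29 higher on the log2 scale by limma (standard error 0.08, adjusted p = 0.38). *Gdi2*, which extracts Rab proteins from membranes, differed by 0.08 (standard error 0.06, adjusted p = 0.97). *Rab3gap2* and *Madd*, which encode the other subunit of the RAB3 GTPase-activating complex and the exchange factor of RAB3, had log2 differences of 0.07 and 0.0046 and were singled out after their values were seen.

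Among 13 effectors of RAB3 and RAB27 0 passed limma, with 2 at an unadjusted p under 0.05 (also 2 by the methods' t-test) and a median of 0.05. These were *Mlph*, the melanophilin that links RAB27A to myosin Va, with 0.26 (standard error 0.08, adjusted p = 0.54), and *Sytl2*, a synaptotagmin-like effector of RAB27, with 0.27 (standard error 0.09, adjusted p = 0.59). *Sytl2* had 6.41, 6.66 and 6.54 on the arrays labelled mutant and 6.15, 6.38 and 6.27 on the arrays labelled control, so that its groups did not overlap. *Rph3a*, rabphilin, an effector of RAB3 in neurons singled out after its values were seen, had 5.49, 5.25 and 4.97 on the arrays labelled mutant and 5.85, 4.77 and 5.42 on the arrays labelled control. Its order of arrays within each group was that of the neuron markers.

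Among 32 genes of the vesicle fusion machinery 0 passed limma, with 3 at an unadjusted p under 0.05 (2 by the methods' t-test). Of the 32 differences 22 lay below 0, where 10045 of all 19938 genes did, and the median was -0.06. *Stxbp5l*, described below, is not in this list. *Syt9*, a calcium sensor of exocytosis, had 6.81, 6.82 and 6.78 on the arrays labelled mutant and 6.99, 7.06 and 7.25 on the arrays labelled control, which is -0.30 on the log2 scale (standard error 0.08, adjusted p = 0.36). *Unc13b*, a vesicle priming factor, differed by -0.16 (standard error 0.06, adjusted p = 0.72). The neuronal SNARE gene *Snap25*, singled out after its values were seen, had 5.90, 5.37 and 4.79 on the arrays labelled mutant and 6.25, 5.10 and 5.65 on the arrays labelled control, again in the order of the neuron markers. Of 9 exocyst genes, which tether vesicles to the plasma membrane, 0 passed limma (0 at an unadjusted p under 0.05, also 0 by the methods' t-test), and the smallest p were those of *Exoc6b* (-0.06, adjusted p = 0.99) and *Exoc4* (-0.20, adjusted p = 0.99).

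**Figure D5:**
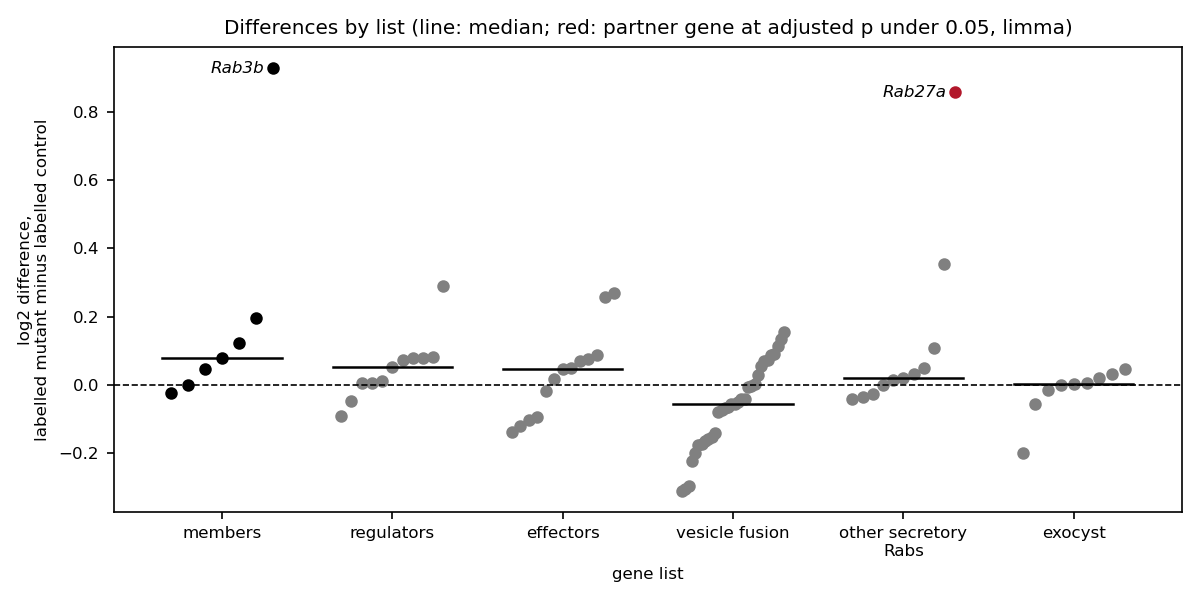
Log2 difference, arrays labelled mutant minus arrays labelled control (vertical axis), of each gene in 6 lists (horizontal axis), ordered by value within a list, with the list's median as a line. The 7 genes described here are in black and partner genes in grey, or in red at an adjusted p under 0.05 from limma. *Rab3b* (0.93) and *Rab27a* (0.86) stand alone above the other genes, whose differences lie between -0.31 and 0.35.

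Across all genes, the 5 whose profile over the 6 arrays came nearest to that of *Rab3b* were *H60b*, *Wnt2b*, *S100a1*, *Folr1* and *Stxbp5l*. Likeness was the root mean square distance of log2 signals, each gene centred on its own mean over the 6 arrays, among 19937 other genes. *H60b*, a ligand of a receptor on natural killer cells from a family of similar genes, lay at 0.082 and had 4.59, 4.62 and 4.66 on the arrays labelled mutant and 3.72, 3.77 and 3.87 on the arrays labelled control. *Wnt2b*, a secreted WNT ligand, lay at 0.105 with a log2 difference of 0.74. *S100a1*, a calcium-binding protein gene, lay at 0.107 and *Folr1*, a folate receptor gene, at 0.113, both with a log2 difference of 0.87. *Stxbp5l*, which encodes a tomosyn that binds syntaxin and restrains vesicle fusion, lay at 0.116 and had 4.31, 4.32 and 4.20 on the arrays labelled mutant and 3.54, 3.58 and 3.52 on the arrays labelled control. The log2 difference of *Stxbp5l* was 0.73 (adjusted p = 0.0023 by limma), at a signal below the array median on each array. All 5 genes had an adjusted p under 0.05 in limma. They were picked for their likeness to *Rab3b*, so nothing is read from this. Of the 7 genes *Rab3d* was the next to *Rab3b*, at 0.376 and rank 491.

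Markers of other cells also varied between arrays. The summed linear signal of 4 lens crystallin genes was 463, 138 and 1191 on the arrays labelled mutant and 212, 194 and 259 on the arrays labelled control, with *Cryaa*, *Cryba1*, *Crybb1* and *Cryga* all higher on average in the arrays labelled mutant and 0 of 4 passing limma. The part of lens tissue in the values of the 7 genes was not tested. The sum of 7 melanocyte markers lay between 808 and 849 on the arrays labelled mutant and between 772 and 874 on the arrays labelled control, and that of 9 RPE markers between 2584 and 2836 on the arrays labelled mutant and between 1958 and 2551 on the arrays labelled control. The sums of the RPE markers thus did not overlap between the groups, though the gap from 2551 to 2584 was narrow. Most of each sum came from *Dct*, whose own groups overlapped. Its lowest array labelled mutant was at 10.51 and its highest array labelled control at 10.57. In the RPE list *Rlbp1* was the 1 of 9 that passed limma, as higher, and 8 did not. Of the 9 differences, 7 lay above 0 and 2 below, where 9893 of all 19938 genes lay above 0. Among the 7, *Rpe65* and *Best1* differed by only 7.4e-04 and 0.013. By limma 3 of the 9 had an unadjusted p under 0.05, against 6.07% of all probe sets. By the methods' t-test 3 did as well, against 1319 of all 23410 probe sets. The 3 by limma were *Rlbp1*, *Trpm1* and *Rdh5*, all higher and without overlap of the groups. The part of RPE content in the difference of *Rab3b* was not tested.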

How the data were processed

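RPE of 3 samples labelled mutant and 3 labelled control was profiled from 300 ng of total RNA on Affymetrix Mouse Gene 1.0 ST arrays, with groups and replicates as named in the sample titles. The deposited values are the authors' log2 signals, 1 for each probe set and array, for which the submitters' processing notes name Partek. The sources used here state neither its version nor how background was corrected and probes were summarized. The authors' second deposited table lists log2 group means, which were used only to check the group names, and p-values, ratios and fold changes of their own comparison, which were not used. Gene names came from the platform's annotation, in which 21789 of 35556 probe sets carry exactly 1 symbol and 1621 carry several, which named no gene. Of the 21789, 21698 were matched by gene identifier to RefSeq and 0 needed another symbol.

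The arrays labelled mutant were set against those labelled control in limma 3.58.1 (R 4.3.3; lmFit and eBayes, no covariates) over the 23410 named probe sets, with Benjamini-Hochberg adjustment and a threshold of 0.05. The fit was tested on simulated data first. The methods name a two-tailed t-test, which was run on the same values. P-values set the difference between the groups against the spread between the 3 pools of a group. In limma that spread is moderated with the variances of all probe sets, while the t-test uses that of the probe set alone. The number of arrays limits the precision. Standard errors of ratios between *Rab3b* and its paralogues are pooled over both groups without moderation.

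Genes named are the 7 genes, *Pax6*, *Rab27a*, in each partner list up to 3 genes past the threshold or else the 2 with the smallest p, and the 5 genes nearest to *Rab3b*. *Rab3gap2*, *Madd*, *Rph3a*, *Snap25* and *Rab25* fall outside this rule and were singled out after their values were seen, and cell type markers are named from their lists. Members and lists were chosen with earlier results of these data known. Some genes of the partner lists are not reported here. Alternatives were the unnamed probe sets, a filter on dim ones, another quantile normalization, trend and robust variances, array weights, the t-test, the study's threshold, averaged probe sets, a replicate block and leaving out each array.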

Additional observations from a re-analysis of the deposited data

How the results depend on the processing

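The difference of *Rab3b* stayed between 0.90 and 0.96 on the log2 scale, and its excess over the mean of its paralogues between 0.75 and 0.90, under another normalization, array weights, a replicate block and with any 1 array left out. The number of the 7 genes past the threshold was 1 with each alternative except the methods' t-test, where it was 0. *Rab27a*, the 1 gene past the threshold among other secretory Rabs, did not pass, so that this count was 0, with unnamed probe sets included in the test (adjusted p = 0.16), by the methods' t-test (adjusted p = 0.58), and without control replicate 2 (0.055), control replicate 3 (0.17), mutant replicate 1 (0.058), mutant replicate 2 (0.19) or mutant replicate 3 (0.17). With 1 array left out the count of other secretory Rabs thus lay between 0 and 1. The counts of the other 4 partner lists were 0 with each alternative. Over all probe sets the 85 past the threshold became 41 with the unnamed ones included and 0 by the methods' t-test. Leaving out control replicate 3 gave 37, leaving out mutant replicate 1 gave 48, mutant replicate 2 gave 26 and mutant replicate 3 gave 31. The sample labels do not say whether arrays with the same replicate number were paired. Their deviations from the group means correlated at 0.37, -0.06 and 0.07. Those of mutant replicate 3 and control replicate 2 correlated at 0.37 as well, so these values neither show nor exclude a pairing. With the replicate number as a block the count of the 7 genes was 1, *Rab3b* differed by 0.93, *Rab27a* passed (adjusted p = 0.0086) and 77 probe sets passed in all.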
